A study of Mus musculus with 4 samples.

Results

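The proteasome is the barrel-shaped protease that degrades proteins tagged with ubiquitin. Its genes, together with the ubiquitin ligases that muscle uses during atrophy, were examined in differentiating C2C12 cells, a mouse myoblast line that fuses into myotubes when serum is lowered. Members were the gene symbols that begin with Psma, Psmc, Psmd, Psme or Psmg and a digit, Psmb1 to Psmb7, Psmf1, and the ligase genes Trim63, Fbxo32, Fbxo30, Trim54 and Trim55. The name search found 50 of 13824 gene symbols. A mean of 0.5 FPKM or more over the 4 libraries was met by 49 of them, against 12796 of all symbols. FPKM (fragment counts divided by transcript length and by the sequencing total of the library) were summed here over the 172 transcripts listed for these 49 genes. Just above that minimum lay Psme2b-ps at a mean of 1.31 FPKM. Just below lay Psmd8, a lid subunit of which 1 transcript was listed, at a mean of 0.201 FPKM. Psma8 and Fbxo40 were not analysed here. Of the 49, 2 match by name only. Psmc3ip encodes a recombination factor (mean 8.72 FPKM), and Psme2b-ps is a copy related to Psme2. This left 42 proteasome genes and 5 ligase genes.

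Both groups were C2C12 myoblasts transfected by Lipofectamine with siRNA at 30 nM and harvested after 48 h of differentiation in 2% horse serum. In the control group the siRNA had a scrambled sequence (scrambled 1 and 2). In the second group it was directed against Mef2a, which encodes a transcription factor that binds muscle gene promoters (siMEF2A 1 and 2). The question was which genes depend on MEF2A in differentiating myoblasts. The labels do not tell if the 2 libraries of a group are separate cultures, and p-values then measure the spread between libraries, which may be technical. The siRNA lowers the Mef2a transcript without deleting the gene, and only 1 siRNA label was given for it.

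The proteasome core is a stack of rings. Alpha subunits form the outer rings and the gate, and beta subunits form the inner rings that hold the proteolytic sites. A regulatory particle of ATPases and non-ATPase subunits caps the core, binds ubiquitin, unfolds the substrate and feeds it in, while dedicated chaperones assemble the whole. In muscle this system removes myofibrillar proteins during fasting, denervation and disuse, when transcription factors of the FOXO family raise the ligases Trim63 (MuRF1) and Fbxo32 (atrogin-1). The proteasome genes themselves are raised by the factor NRF1, encoded by Nfe2l1, through antioxidant response elements in their promoters.

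Promoter sequence is shown first for the 2 ligase genes of the MuRF family for which RefSeq gave a window, since these genes were lower in both siMEF2A libraries. The windows cover 250 bases before to 50 bases after the annotated start on build GRCm38.p6, and were found for 39 of the 49 genes, among them 3 ligases. Trim55 and Fbxo32 had none. Capitals mark E-boxes (CANNTG, the letters bound by MYOD1 and myogenin) and, in Trim63 only, a FOXO site (GTAAACA, read on the other strand). Trim54 is at chr5:31116362-31116661 and Trim63 at chr4:134314870-134315169, both on the plus strand.
Trim54: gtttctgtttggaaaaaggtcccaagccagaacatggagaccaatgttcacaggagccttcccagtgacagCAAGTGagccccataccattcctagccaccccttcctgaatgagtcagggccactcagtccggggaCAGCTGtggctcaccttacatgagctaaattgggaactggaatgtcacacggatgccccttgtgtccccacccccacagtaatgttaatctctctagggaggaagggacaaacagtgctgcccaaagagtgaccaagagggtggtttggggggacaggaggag
Trim63: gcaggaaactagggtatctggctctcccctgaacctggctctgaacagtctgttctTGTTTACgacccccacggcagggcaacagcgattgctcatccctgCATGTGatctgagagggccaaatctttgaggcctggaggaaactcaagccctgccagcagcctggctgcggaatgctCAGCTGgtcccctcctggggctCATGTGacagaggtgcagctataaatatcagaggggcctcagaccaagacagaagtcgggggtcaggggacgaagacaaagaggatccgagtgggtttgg

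The Trim54 window held the E-boxes CAAGTG, with its first base 179 bases before the start, and CAGCTG, 113 before it. The listed Trim54 locus begins at 31116712, downstream of this window. The Trim63 window held CATGTG at 149 and at 50 bases before the start and CAGCTG at 72, besides the FOXO letters at 194. All motifs were searched on both strands, and the CAGCTG matches are also counted among the E-boxes. An E-box was present in 75.0% of the 27025 genes with a window, and in 2 of the 3 ligases. CAGCTG was present in 18.3%, and in 2 of the 3 ligases. The FOXO letters were present in 4.1%, and in 1 of the 3 ligases. The MEF2 consensus was found in 3.7% of all genes and in 0 of the 3 ligases, which says only that these letters are not in this window. The ligase window not printed, that of Fbxo30, held no E-box. With 3 windows, of which 2 were printed for their expression values, a link of these letters to the differences was not tested.

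The targeted gene was examined first. Mef2a was at 25.8 FPKM in scrambled 1, 32.2 in scrambled 2, 12.7 in siMEF2A 1 and 14.3 in siMEF2A 2, so that it fell to 46.5% of the scrambled mean (limma adjusted p = 2.83e-05). Depth relative to scrambled 1, read from low FPKM values, was 1.05 for scrambled 2, 0.849 for siMEF2A 1 and 0.847 for siMEF2A 2, and absolute depth was unknown. Of 10 skeletal muscle markers, 8 were in the files, and 5 of these were called lower (Myh3, Ckm, Tnnt1, Actc1 and Myog). The share called lower over all genes tested was 1.32%. Myod1, Des and Myf5 were not called, at 71.6%, 71.0% and 93.8% of their scrambled means. All 8 had both siMEF2A libraries under both scrambled ones, against 9.12% of all genes tested. The part of these markers in the differences below was not tested. Their summed level was 873 and 962 FPKM in scrambled 1 and 2, against 509 and 553 in siMEF2A 1 and 2. Markers of other cell types were few. Leukocyte markers (3 of 7 listed) summed to 16.0 to 20.3 FPKM, nearly all of it Cd14, the 1 listed adipocyte marker (Fabp4) was at 2.30, 1.54, 0.767 and 1.18 FPKM (limma adjusted p = 0.0606), and 0 of 5 endothelial markers were listed. Markers of epithelial cells (1 of 5) and osteoblasts (1 of 4) lay between 0.327 and 1.52 FPKM.

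Among all members, the 1 that passed the test was a muscle ligase. Trim54 (MuRF3), which binds microtubules and sarcomere Z-discs, fell in siMEF2A cells to 55.5% of its scrambled mean. Trim63 and Trim55, its close relatives, were at 66.5% and 73.0% with both siMEF2A libraries under both scrambled ones, but they did not pass the test over all genes. Of the 49 members tested, 1 was called lower and 0 higher at a limma adjusted p under 0.05. Over the 11823 genes tested, 1.32% were called lower and 0.406% higher. In 4 of the 5 ligases both siMEF2A libraries were under both scrambled libraries, an arrangement seen in 9.12% of all genes tested. The opposite arrangement, seen in 18.8% of all genes, was found in 0 ligases. The median log2 difference over the 5 ligases (siMEF2A minus scrambled, on log2(FPKM + 1)) was -0.41, and the median over all genes tested was 0.04. As these are whole cultures, fewer cells that express a gene and less RNA per cell cannot be told apart.

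Trim54 (chr5:31116712-31137630, plus strand) stood at 2.83 FPKM in scrambled 1, 3.22 in scrambled 2, 1.72 in siMEF2A 1 and 1.63 in siMEF2A 2. The groups did not overlap, and the scrambled libraries differed more from each other than the siMEF2A libraries did. The means were 3.02 ± 0.281 (SD, n = 2) and 1.68 ± 0.0656 FPKM (SD, n = 2). On log2(FPKM + 1) the difference was -0.59 with a standard error of 0.15 (limma adjusted p = 0.0253). At levels this low the added 1 compresses the difference, which was -0.81 with 0.1 added instead. The call was lost in 3 of the 4 fits that left out 1 library: the limma adjusted p was 0.20 without scrambled 2, 0.0679 without siMEF2A 1 and 0.135 without siMEF2A 2. It was 0.0621 after quantile normalization. In the fit over all transcripts, the single Trim54 transcript has the same difference and was not called (limma adjusted p = 0.528).

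Trim63 (chr4:134315120-134329629, plus strand), the ligase that ubiquitinates thick-filament proteins and a standard marker of atrophy, was at 5.95 and 7.02 FPKM in scrambled 1 and 2, against 4.30 and 4.33 in siMEF2A 1 and 2. The siMEF2A libraries agreed closely and both lay under the lower scrambled value. The log2 difference was -0.49 with a 95% interval of -0.79 to -0.19 (limma adjusted p = 0.111, unadjusted p = 0.00245). Of the 19 alternatives run, only 2 called it. Blocked on the replicate number, which no label pairs between the groups, its limma adjusted p was 0.00633. That block called 288 genes lower and 220 higher over all genes, against 156 and 48 in the main fit. With a length trend removed from each library, a fit added after seeing the data, the limma adjusted p of Trim63 was 0.0476.

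Trim55 (MuRF2, chr3:19644474-19692421, plus strand), a partner of titin at the sarcomere, was at 12.0 and 12.7 FPKM in scrambled 1 and 2, against 8.95 and 9.09 in siMEF2A 1 and 2. The gap between the groups was several times the gap within either group. The log2 difference was -0.41 with a 95% interval of -0.71 to -0.11 (limma adjusted p = 0.266, unadjusted p = 0.00838). The limma adjusted p was 0.0132 with the replicate block, the only 1 of 19 alternatives that called it. Summed over the 3 MuRF genes, the level was 20.8, 22.9, 15.0 and 15.1 FPKM in scrambled 1, scrambled 2, siMEF2A 1 and siMEF2A 2. The siMEF2A mean of that sum was 68.7% of the scrambled mean. With Fbxo32 and Fbxo30 included, the sum over all 5 ligases was 41.7, 45.4, 33.4 and 36.2 FPKM in the same order. Reads were assigned to transcripts by the authors, and how reads shared by related genes were treated is not given in the sources used here.

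The F-box ligases were not called. Fbxo32 (chr15:58175879-58214932, minus strand), the substrate receptor of a ligase complex that targets MYOD1 among others, was the most abundant ligase at 14.3 and 15.3 FPKM in scrambled 1 and 2, against 11.3 and 13.1 in siMEF2A 1 and 2. The groups did not overlap, but the siMEF2A libraries spread more widely than the gap to scrambled 1. Its log2 difference was -0.26, with a 95% interval of -0.56 to 0.05. Fbxo30 (MUSA1, chr10:11281330-11298052, plus strand), a receptor raised in denervated muscle, was at 6.68, 7.22, 7.16 and 8.00 FPKM in the same order. These values overlapped, and the log2 difference was 0.11, with a 95% interval of -0.19 to 0.41. Fbxo30 was thus the 1 ligase above its scrambled mean, at 109%.

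**Figure D1:**
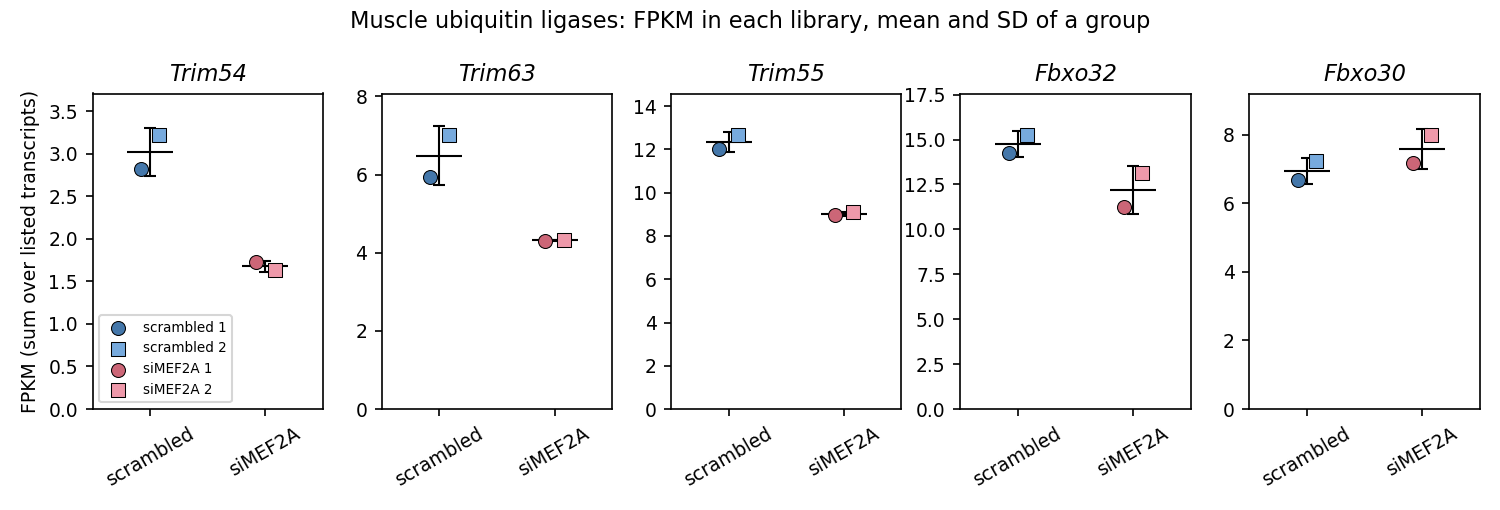
FPKM (vertical axes, each from 0) of the 5 muscle ligase genes in each of the 4 libraries, with the mean and SD of each group of 2. Trim54, Trim63, Trim55 and Fbxo32 have both siMEF2A points below both scrambled points, while those of Fbxo30 overlap at 6.68 to 8.00 FPKM.

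Other ubiquitin ligases and adaptors used in muscle were read from a list of 32 names, of which 25 were tested. In that list 3 were called lower and 0 higher, against 1.32% and 0.406% of all genes tested. Trim72 (MG53), a ligase that takes part in membrane repair, was at 8.05 and 8.31 FPKM in scrambled 1 and 2, against 2.93 and 3.38 in siMEF2A 1 and 2, with no overlap (log2 difference -1.15, limma adjusted p = 3.18e-06). Klhl41, an adaptor for cullin-3 ligases in the sarcomere, was at 19.1, 21.8, 11.2 and 11.1 FPKM (log2 difference -0.82, limma adjusted p = 0.00069). Its relative Klhl40, which stabilises thin-filament proteins, was at 2.78, 3.47, 1.34 and 1.68 FPKM (log2 difference -0.71, limma adjusted p = 0.00422). All 3 are known as genes of striated muscle. The call of Klhl40 was lost without scrambled 2 (limma adjusted p = 0.0915) and without siMEF2A 1 (0.0641). The median log2 difference over the 25 was 0.05, close to that of all genes tested. The other tested genes of the list were not called. Among them were Neurl2 at 4.26, 3.83, 3.20 and 3.35 FPKM, without overlap, and Nedd4 at 136, 201, 173 and 216 FPKM. Asb2, at 0.860, 1.53, 0.436 and 0.377 FPKM, was below the minimum for a test. Neurl2, Nedd4 and Asb2 were named after their values were seen, Nedd4 for being abundant.

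Genes that signal atrophy to these ligases were also followed. Of 31 names listed, 24 were tested, 1 was called lower and 0 higher. Over all genes tested, 1.32% were called lower and 0.406% higher. The 1 called was Myog, encoding myogenin, which binds E-boxes of Trim63 and Fbxo32 in denervated muscle and is also a differentiation marker. Myog was at 126 and 138 FPKM in scrambled 1 and 2, against 80.5 and 86.2 in siMEF2A 1 and 2, without overlap (log2 difference -0.66, limma adjusted p = 0.0284). Its call was lost without scrambled 2 (limma adjusted p = 0.127), without siMEF2A 1 (0.47) and without siMEF2A 2 (0.181). Ppargc1a, a coactivator that opposes atrophy, was at 2.59, 3.45, 3.84 and 4.05 FPKM and was not called (limma adjusted p = 0.795). Foxo1, Foxo3, Foxo4, Hdac4 and Hdac5 were likewise not called.

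The proteasome genes showed no change that passed the test. Of 42, 0 were called in either direction (edges of the range -0.22 for Psma3 and 0.10 for Psmd1, on log2), and 0 had an unadjusted limma p under 0.05, which 754 of all genes tested had. Their median log2 difference was -0.01, with 20 positive and 22 negative. Over the 11823 genes tested the median was 0.04, with 7553 positive and 4270 negative. In 41 of the 42 the groups overlapped, against 8519 of all genes tested. The exception was the assembly chaperone gene Psmd9, at 9.55 and 9.44 FPKM in scrambled 1 and 2, against 9.94 and 9.90 in siMEF2A 1 and 2. Its siMEF2A mean was 104% of the scrambled mean (limma adjusted p = 1.00), so the separation came from very close values. Summed over the 42 genes, the level was 4903, 4643, 5037 and 4221 FPKM, and the siMEF2A mean was 97.0% of the scrambled mean. The test could miss moderate changes. On simulated data for this comparison it found 38.8% of genes changed 1.5-fold and 97.0% of those changed 2-fold. That simulation covered 11823 genes, and the shares for the proteasome genes alone were not computed.

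**Figure D2:**
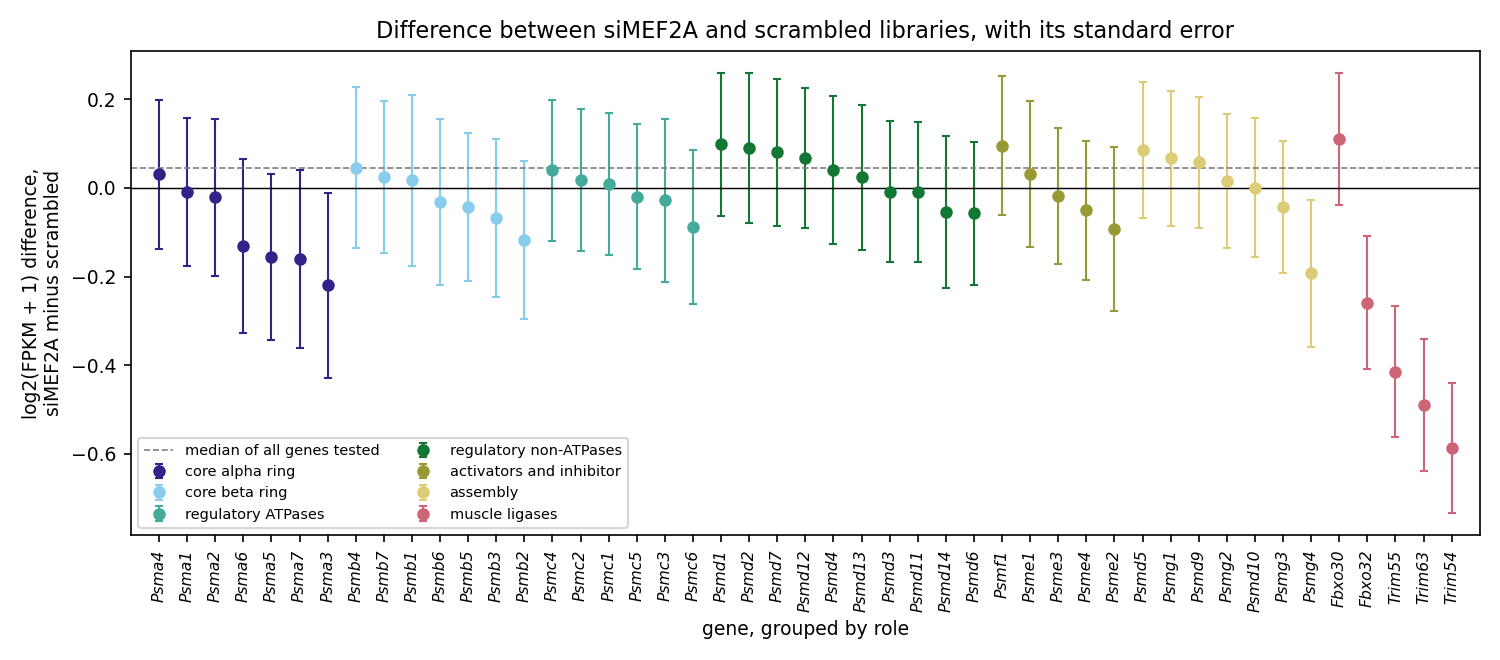
Difference between siMEF2A and scrambled libraries on log2(FPKM + 1) (vertical axis) for each of the 47 genes (horizontal axis, grouped by role); points are fitted differences and bars 1 standard error, and the dashed line is the median of all genes tested (0.04). Proteasome genes lie between -0.22 and 0.10, and 4 of the 5 ligases lie lower.

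The alpha ring held the most abundant gene and the largest median differences between replicates of all roles. Psma3, a subunit whose tail lies near the gate, was at 422, 308, 366 and 262 FPKM in scrambled 1, scrambled 2, siMEF2A 1 and siMEF2A 2. In both groups replicate 2 was the lower library, and the groups overlapped. Its log2 difference was -0.22, with a 95% interval of -0.64 to 0.21. The lowest of the ring was Psma1 at 91.2, 87.9, 99.3 and 79.6 FPKM, and the only positive difference was that of Psma4 at 108, 109, 120 and 102 FPKM. Psma2, Psma5, Psma6 and Psma7 had means between 167 and 304 FPKM and differences between -0.16 and -0.02. The median over the 7 was -0.13, and 6 of the 7 were negative. Summed over the ring, scrambled 2 was at 82.9% of scrambled 1 and siMEF2A 2 at 74.4% of siMEF2A 1, whereas the siMEF2A mean was 92.0% of the scrambled mean. As single libraries, the replicates of either group thus differed more than the group means did.

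The beta ring holds the 3 proteolytic subunits. Psmb5, which carries the chymotrypsin-like site, was the lowest of the ring at 101, 105, 108 and 92.8 FPKM. Psmb6, the caspase-like subunit, was at 259, 228, 265 and 213 FPKM, and Psmb7, the trypsin-like one, at 123, 137, 141 and 124 FPKM. All 3 overlapped between the groups. Among subunits without catalytic activity, Psmb1 was the highest of the ring at 295, 253, 311 and 245 FPKM. Psmb4 had the largest positive difference (0.05; 216, 202, 233 and 198 FPKM) and Psmb2 the largest negative one (-0.12; 180, 176, 181 and 149 FPKM). Neither is larger than its standard error of 0.18. The median over the 7 was -0.03.

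Immunoproteasome subunits replace the catalytic ones after interferon. Of 4 names, 2 were tested and 0 called. Psmb8 was scarce at 1.17, 1.83, 0.923 and 1.17 FPKM, and scrambled 1 and siMEF2A 2 were nearly equal. Psmb10 was at 24.7, 28.0, 26.3 and 25.4 FPKM, with overlap. The constitutive Psmb5, compared per length, was at a mean of 102 FPKM.

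The ring of 6 ATPases, which unfolds substrates, changed little. Psmc3 was the highest at 242, 250, 252 and 231 FPKM, well above Psmc1, the lowest, at 58.4, 69.2, 64.4 and 63.6 FPKM. Psmc4 had the largest positive difference (0.04; 62.1, 68.1, 69.3 and 64.5 FPKM) and Psmc6 the largest negative one (-0.09; 135, 123, 136 and 108 FPKM). All 6 overlapped between the groups, and their median was -0.01. Psmc2 and Psmc5 had means of 66.3 and 82.8 FPKM. For Psmc1 the 95% interval of the log2 difference was -0.32 to 0.34.

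Non-ATPase subunits recognise and cut off ubiquitin and hold the regulatory particle together. The highest of the 10 was Psmd4, a ubiquitin receptor, at 101, 111, 113 and 104 FPKM. The lowest was Psmd11, a lid scaffold, at 35.7, 42.8, 35.6 and 42.4 FPKM, where the replicates of each group differed and the group means did not. The largest positive difference was that of Psmd1, a base scaffold, at 44.2, 56.5, 52.8 and 54.4 FPKM (log2 0.10, 95% interval -0.23 to 0.43). The largest negative one was that of Psmd6, of the lid, at 72.7, 71.2, 74.6 and 63.9 FPKM (log2 -0.06). Psmd14, the subunit that removes ubiquitin chains, was at 93.1, 87.5, 101 and 74.7 FPKM. The 10 genes had a median difference of 0.03 and all overlapped. Psmd8 was listed with 1 transcript, near 0 in scrambled 1 and 2 but 0.322 and 0.483 FPKM in siMEF2A 1 and 2, below the minimum for a test. These values depend on which transcript was listed and may not measure the whole gene, so no change of Psmd8 is read from them.

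Alternative caps and the inhibitor covered the widest range of levels. Psme2, which forms a ring with Psme1 that is induced by interferon, was at 233, 198, 224 and 181 FPKM. The lowest was Psmf1, the inhibitor, at 10.9, 15.2, 13.5 and 14.2 FPKM, where scrambled 1 was the low library. The ratio of highest to lowest mean level per length was 15.5 in this role, against 2.72 in the beta ring. Psme1, Psme3 (nuclear) and Psme4 had means of 96.1, 40.7 and 17.6 FPKM. The 5 genes overlapped between the groups, with differences from -0.09 to 0.10. Psme2b-ps shares sequence with Psme2, and how fragments were divided between such copies is not given in the sources used here.

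Assembly chaperones were lower in level than the subunits they bring together. Psmg1 to Psmg4 guide the alpha ring, while Psmd5, Psmd9 and Psmd10 guide the ATPase ring. Psmg4 was the highest at 66.0, 51.2, 56.8 and 45.3 FPKM and had the largest negative difference (-0.19, 95% interval -0.53 to 0.15). Psmd5 had the largest positive one, at 26.3, 30.7, 29.2 and 31.2 FPKM (0.08). The other 4, Psmg1, Psmg2, Psmg3 and Psmd10, had means of 18.8 to 33.1 FPKM and differences of -0.04 to 0.07. The median over the 7 was 0.02.

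As levels per length, 41 of the 42 proteasome genes were above the median gene tested (11.7 FPKM), and the median proteasome gene, at 87.5 FPKM, stood at percentile 91.6 of all genes tested. Of the 5 ligases, 1 (Fbxo32) was above that median. Core genes were the highest, with median means of 186 FPKM in the alpha ring and 191 in the beta ring. ATPases (74.6) and non-ATPases (72.2) had median means close to each other, followed by the activators and inhibitor at 40.7 and the assembly genes at 29.4 FPKM. The order of roles is a description, and the ranges of neighbouring roles overlapped.

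**Figure D3:**
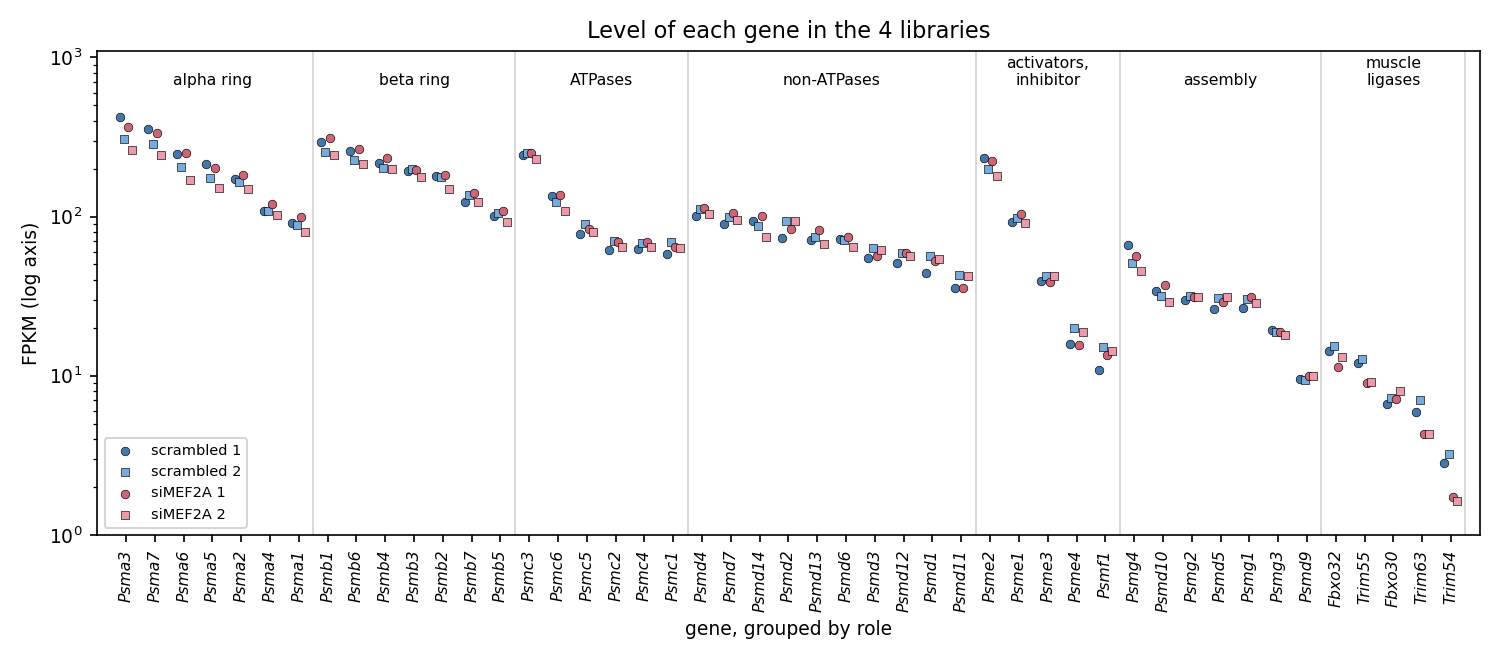
Level in FPKM (vertical log axis) of the 42 proteasome and 5 ligase genes in the 4 libraries (circles replicate 1, squares replicate 2, blue scrambled, red siMEF2A), ordered by role and mean. Core genes lie between 79.6 and 422 FPKM and ligases between 1.63 and 15.3 FPKM, and in the alpha ring the squares lie mostly below the circles.

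Replicates differed more than groups across most proteasome genes. The median size of the log2 difference was 0.04 between groups, 0.15 between scrambled 2 and 1, and 0.20 between siMEF2A 2 and 1. In 41 of the 42 genes the mean size of the replicate differences exceeded the group difference. Single libraries vary more than means of 2, so replicate differences tend to be the larger even where groups do not differ. A shift shared by replicate 2 of both groups also drops out of the group difference. The share over all genes was not computed. Among the core genes, all 14 were lower in siMEF2A 2 than in siMEF2A 1, and 10 of the 14 were also lower in scrambled 2 than in scrambled 1. Of the 11823 genes tested, 4416 were lower in siMEF2A 2 than in siMEF2A 1, and 2509 were lower in replicate 2 of both groups. Of the 5 ligases, 4 were higher in replicate 2 of both groups, as were 5857 of all genes tested. The exception was Trim54, which was higher in scrambled 2 and lower in siMEF2A 2.

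These replicate differences went with transcript length. Over the 42 genes, Spearman's rho between the FPKM-weighted transcript length and the log2 difference reached 0.56 for the scrambled replicates (2 minus 1) and 0.55 for the siMEF2A replicates. Over 11649 genes with a length it was 0.43 and 0.55, and for the group difference it was 0.48 over the members and 0.26 over all genes. The points of each comparison share the same 2 or 4 libraries, so these are descriptions. Among the 11 members under 1000 bases, such as Psma7, Psmb3 and Psmg4, the median gap was -0.09 between scrambled replicates and -0.28 between siMEF2A replicates. Among the 11 of 2000 bases or more, such as Psmd1 and Psme4, it was 0.22 and 0.09. For the group differences, 1 fit removed the trend from each library, which also recentred the libraries. The median over all genes then went from 0.045 to 0.001. The median went from -0.04 to -0.03 for core, from 0.01 to -0.03 for regulatory and from 0.02 to 0.00 for assembly genes. In that fit 0 proteasome genes were called. The part of length apart from the recentring was not tested.

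**Figure D4:**
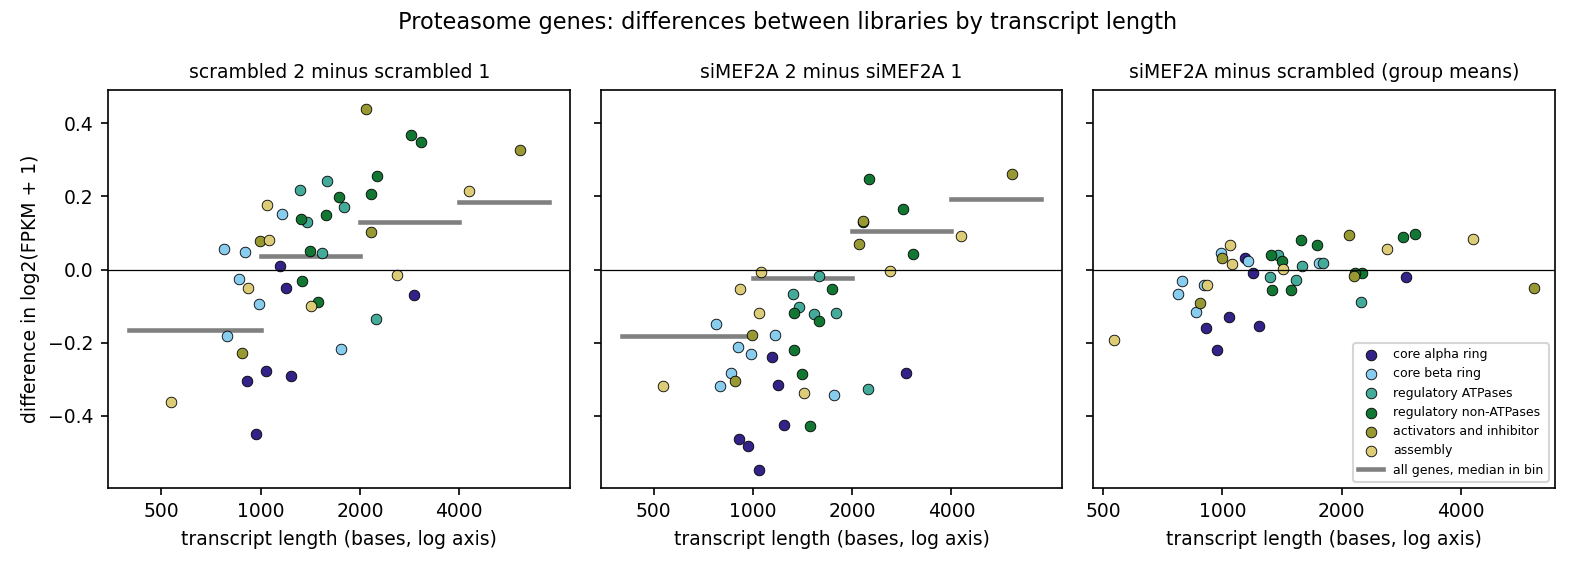
Difference in log2(FPKM + 1) (vertical axes) against transcript length in bases (horizontal log axes) for the 42 proteasome genes. The panels compare scrambled replicates, siMEF2A replicates and group means. Grey bars, drawn only in the replicate panels, are medians of all genes tested in 4 length bins. Short transcripts lie low and long ones high in both replicate panels, and the points of the group panel lie closer to 0.

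At the level of transcripts, 127 member transcripts were tested and 0 were called in either direction. In the fit of all 23600 transcripts, 0.195% were called lower and 0.0297% higher, and 10 member transcripts had an unadjusted limma p under 0.05, of which 5 were lower and 5 higher. These 10 are 7.87% of the member transcripts, against 5.67% of all transcripts at that threshold. The smallest limma adjusted p was 0.368, for a retained-intron transcript of Psme2 at 2.53, 3.90, 1.30 and 1.40 FPKM. Of the higher ones, 3 belonged to Psmd13, a subunit of the lid, among them a retained-intron transcript at 1.37, 1.43, 2.49 and 2.80 FPKM, without overlap. The sum of all Psmd13 transcripts overlapped between the groups at 71.7, 74.3, 82.1 and 67.1 FPKM. Trim54, Trim63, Trim55 and Fbxo32 each had 1 listed transcript, so their gene and transcript FPKM are the same, and none of the 4 was called in the transcript fit.

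Most of these genes were read from 1 main coding transcript. In 29 of 47 the top transcript held 90% or more of the gene's FPKM, and in 46 of 47 it was protein-coding. Psma3 was the exception, with 72.8% of its FPKM in transcripts of non-coding types. A Psma3 transcript annotated as a target of nonsense-mediated decay held 35.7%, one with a retained intron held 35.2% and the main coding one held 25.0%. That coding transcript was at 102, 80.6, 98.4 and 58.7 FPKM, which ranks the libraries as the gene sum does. Non-coding types also held 38.8% of Psmd13 and 36.1% of Psmb4. These shares are the authors' estimates from overlapping transcripts.

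Antioxidant response elements (TGACNNNGC, either strand) are printed for the proteasome genes because the factor that raises these genes together binds such letters. They were found in 6 of the 35 proteasome genes with a window (17.1%) and in 14.0% of all genes. Each stretch below is on the gene's strand, with the match in capitals, from RefSeq windows on GRCm38.p6.
Psmb5 (chr14:54618018-54618058, minus): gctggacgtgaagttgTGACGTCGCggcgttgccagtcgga
Psmb6 (chr11:70525332-70525372, plus): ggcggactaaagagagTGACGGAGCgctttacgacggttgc
Psmc6 (chr14:45329581-45329621, plus): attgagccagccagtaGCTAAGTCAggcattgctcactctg
Psmd12 (chr11:107479278-107479305, plus): tctGCTGTGTCAcatttgcccccctcag
Psme4 (chr11:30771752-30771792, plus): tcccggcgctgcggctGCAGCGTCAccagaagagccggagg
Psmd9 (chr5:123228143-123228183, plus): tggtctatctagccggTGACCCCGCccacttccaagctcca

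The matches in Psmb5, Psmb6 and Psmd9 are in the orientation written, and those in Psmc6, Psmd12 and Psme4 are on the other strand. The 6 genes had log2 differences between -0.09 (Psmc6) and 0.07 (Psmd12), and none was called. A CCAAT box (either strand) was found in 12 of the 35 (34.3%), against 41.1% of all genes. E-boxes were found in 21 of the 35, against 75.0% of all genes, and the FOXO and MEF2 letters in 0 of the 35, against 4.1% and 3.7%. Genes that control the system did not pass the test. Of 7 tested, 0 were called, among them Ngly1, which activates NRF1, at 7.02, 8.11, 9.20 and 8.76 FPKM, and Nfe2l2, encoding the related NRF2, at 57.5, 73.9, 71.3 and 79.7 FPKM. For these 7 the median log2 difference was 0.04.

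Ubiquitin and its conjugating enzymes were read from 22 names, of which 21 were tested and 0 were called by limma. Ube2v2, a partner of the conjugating enzyme UBE2N, was at 174, 133, 138 and 108 FPKM, with overlap. Of 17 names of proteasome cofactors, 14 were tested and 0 called. Uchl5, a deubiquitinase of the regulatory particle, was at 9.34, 12.4, 13.4 and 13.0 FPKM, and the shuttle receptor Ubqln2 was at 10.9, 16.0, 13.3 and 16.4 FPKM.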

How the data were processed

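RNA-seq libraries of C2C12 cells (2 scrambled, 2 siMEF2A) were made with a TruSeq kit, per the labels' protocols. The authors deposited FPKM per Ensembl transcript, per the file headers. CASAVA, Trimmomatic, TopHat, Bowtie, Cufflinks and build mm10 are named, without versions, per the submitters' processing notes. For annotation, use of strand and scaling between libraries, details were not given in the sources used here, and overlapping genes cannot be told apart.

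FPKM were summed per symbol without 27 small RNA symbols. The 11823 genes averaging 1 FPKM or more were compared on log2(FPKM + 1), a scale that understates changes of low genes. The test was two-sided in limma 3.58.1 (R 4.3.3; lmFit and trended eBayes; 2 residual and 30.0 prior degrees of freedom), with Benjamini-Hochberg adjustment over all genes and calls under 0.05. Every p and 95% interval is from limma. Relative depth came from the commonest ratio among 600 low single-transcript genes (shared by 17 to 25, the next by 11 to 15) and assumes no other scaling, and no counting interval was computed. Transcript types and lengths came from GENCODE mouse release M21 (97.3% of transcripts found).

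Members and lists were chosen with earlier results of these data known. Values in every library are given for called members, all ligases, Mef2a, and the highest, lowest, most positive and most negative gene of each role. From other lists the called genes are given, and where fewer than 2 were called, those with the smallest p up to 2. The result of 1 gene that this rule names is not reported here. Outside this rule, Psmb6, Psmb7, Psmd14, Psmd13, Psmd8, Fabp4, Nedd4, Neurl2 and Asb2 were named after their values were seen. On data simulated for this comparison (11823 genes) limma found 38.8% of 67 genes changed 1.5-fold, 97.0% of 67 changed 2-fold and 100% of 66 changed 4-fold, with 4 false among 161 calls. Alternatives changed the scaling, the pseudocount, the filter, the moderation, the transcripts summed and the libraries kept. Removal of a length trend was added after seeing the data.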

Additional observations from a re-analysis of the deposited data

How the results depend on the processing

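Over the alternatives run, the median log2 difference ranged from -0.47 to -0.34 for the ligases, -0.17 to 0.12 for core, -0.05 to 0.10 for regulatory and -0.04 to 0.05 for assembly genes. Of 20 proteasome genes named by the rule, 1 kept its sign under all 19 alternatives, and the smallest limma adjusted p was 0.292. Members called lower (1) became 0 with quantile normalization and, as Trim54 was not tested, 0 with a minimum of 5 FPKM. The number was 2 with the length trend removed (Trim54 and Trim63) and ranged from 0 to 1 without 1 library. For member transcripts it ranged from 0 to 1. Labels do not pair the replicate numbers. The numbers follow the sample titles, and the scrambled data were deposited under other numbers, so the replicate block rests on an uncertain pairing. The differences between replicates correlated between the groups (Pearson 0.29, Spearman 0.50 over 11823 genes, and Pearson 0.85 over the 42 proteasome genes), and the replicate block gave 3 members lower (Trim54, Trim55, Trim63), 288 genes lower and 220 higher.

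Over all genes, the 48 called higher became 14 with median-ratio scaling, 14 with upper-quartile scaling, 11 with quantile normalization, 29 with a pseudocount of 0.1, 29 with no filter, 25 without a trend, 73 with robust moderation, 23 with small RNA symbols kept, 76 with protein-coding transcripts only and 15 with the length trend removed. They ranged from 41 to 74 when 1 library was left out (74 without scrambled 2). The 156 called lower became 97 at a minimum of 5 FPKM, and 133, 132 and 107 under the 3 scalings, whose median shift of the log2 difference over genes was -0.05, -0.04 and -0.04. A fit that leaves a group with 1 library assumes that it varies like the others. Unknown depth limits what can be said of genes near 1 FPKM.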
